A study of Mus musculus with 6 samples.

Results

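Serotonin is made from tryptophan by tryptophan hydroxylase, is taken back into cells by its transporter, acts on a family of receptors and is broken down by monoamine oxidase. The 9 genes described here cover these steps: the receptors Htr1b, Htr2a, Htr2b, Htr4 and Htr7, the peripheral synthesis enzyme Tph1, the transporter Slc6a4, and the monoamine oxidases Maoa and Maob. They were found by gene name in the scanner files, where all 9 were present among 28902 names, with 12 of the 41174 probes. The set was chosen by measured values, since the detection of Htr7 on patDp/+ arrays alone is part of its rule, so differences between the genotypes in these genes are given as descriptions and without a test.

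In fat, serotonin made outside the brain is known to act on adipocytes through several receptors and to restrain heat production, and Tph1 is the rate-limiting enzyme of this supply. Rodent mast cells make and store serotonin, platelets carry it in blood after uptake through Slc6a4, and sympathetic nerves use related amines that share transporters and oxidases with it. Receptors couple to different G proteins: Htr4 and Htr7 raise cyclic AMP, Htr1b lowers it, and Htr2a and Htr2b act through phospholipase C.

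The tissue was epididymal white fat from male mice on a C57BL/6 background at 9 to 10 weeks of age, an age the labels call young adult. The patDp/+ group (3 mice) carries a duplication inherited from the father of the mouse chromosome 7 interval that matches the human region named in the series title, on 1 of its 2 copies. The wild type group (3 mice) carries none, and no treatment is given for either group. RNA of the whole tissue was labelled with Cy3 and put on one-colour Agilent arrays, 1 for each mouse, so fewer cells of a type and less RNA per cell cannot be told apart. Adipocyte markers were well above background on all 6 arrays for 9 of the 9 listed genes with a probe, among them Adipoq, Plin1 and Lipe. Of the 9 epididymis and testis markers, Crisp1, Lcn5, Lcn8, Defb1 and Gpx5 were well above background on 0 arrays. Adam7 was well above background on wild type replicate 3 alone, at 170. Prm1, Prm2 and Tnp1 were well above background on all 6 arrays. Genes of the duplicated interval checked the labels: Snrpn, Ndn, Mkrn3, Herc2 and Ube3a were higher on every patDp/+ array than on any wild type array, with log2 differences between 0.49 and 1.18. Each of the 3 slides held 1 patDp/+ and 1 wild type array of the same replicate number, so a difference within each slide can be given beside that between groups. Between 63.4% and 71.7% of probes were well above background on the patDp/+ arrays, against 66.6% to 68.7% on the wild type arrays.

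The results turn on 6 probes, whose sequences as printed in the scanner files show which stretch of RNA each reads. Htr7 was well above background on the patDp/+ arrays alone and Htr2a on wild type replicate 3 alone. The Tph1 pair gave different detection, and Maoa and Maob were far above background on every array. Detection of Htr2b also varied between arrays, and its sequences are not printed. All 60 bases are given for Htr2a and for Tph1 probe 2, and bases 16 to 45 of the 60 for the others.
Htr7: gggggaaacaacgaaaccattggctgagac
Htr2a: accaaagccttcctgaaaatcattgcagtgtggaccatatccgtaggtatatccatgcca
Tph1 probe 1: ctctctctgaaaatgcacacctggaactgc
Tph1 probe 2: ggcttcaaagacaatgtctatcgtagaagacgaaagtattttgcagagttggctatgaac
Maoa: caaagaatcacctagctaatttccataaga
Maob: tagtctgcttccattcaaagattaagacat
On mm9 the Htr7 probe lies at chr19:36034764-36034823 on the minus strand. The Htr2a probe is placed at chr14:75044950-75105415 on the plus strand, a span of 60466 bases for a probe of 60 bases, so its sequence is not contiguous in the genome. Tph1 probe 1 lies at chr7:53902606-53902665 and Tph1 probe 2 at chr7:53912586-53912645, both on the minus strand and 9.98 kb apart. This places Tph1 on the chromosome of the duplication but 9.58 Mb from the Herc2 probe, the nearest of the 5 interval genes, and not among them. The Maoa probe lies at chrX:16262643-16262702 on the plus strand and the Maob probe at chrX:16286427-16286486 on the minus strand, 23.8 kb apart. GC content was 45.0% for the Htr7 and Htr2a probes, 38.3% and 40.0% for the Tph1 probes, and 35.0% for both oxidase probes. Whether these stretches are coding or untranslated was not analysed here.

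The filter for fold changes kept a probe when 3 or more arrays showed it well above background, and 6 member probes passed, 1 each of Htr7, Htr2b, Tph1, Slc6a4, Maoa and Maob. The filter itself favours a probe detected in one whole group, as Htr7 was, so these 6 are not a sample of the 12. Slc6a4, Maoa and Maob were well above background on all 6 arrays, as were 62.1% of the probes on the array. The probe of Htr1b, both of Htr4 and Tph1 probe 2 were well above background on 0 arrays, as were 24.0% of probes. Detection on a single array, seen for the Htr2a probe and for Htr2b probe 1, occurred for 5.81% of probes. No member probe was saturated or marked as an outlier on any array. Signals below are processed intensities in arbitrary units after the scanner software's background subtraction, and since probes differ in brightness they compare arrays for 1 probe and not genes with each other.

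**Figure D1:**
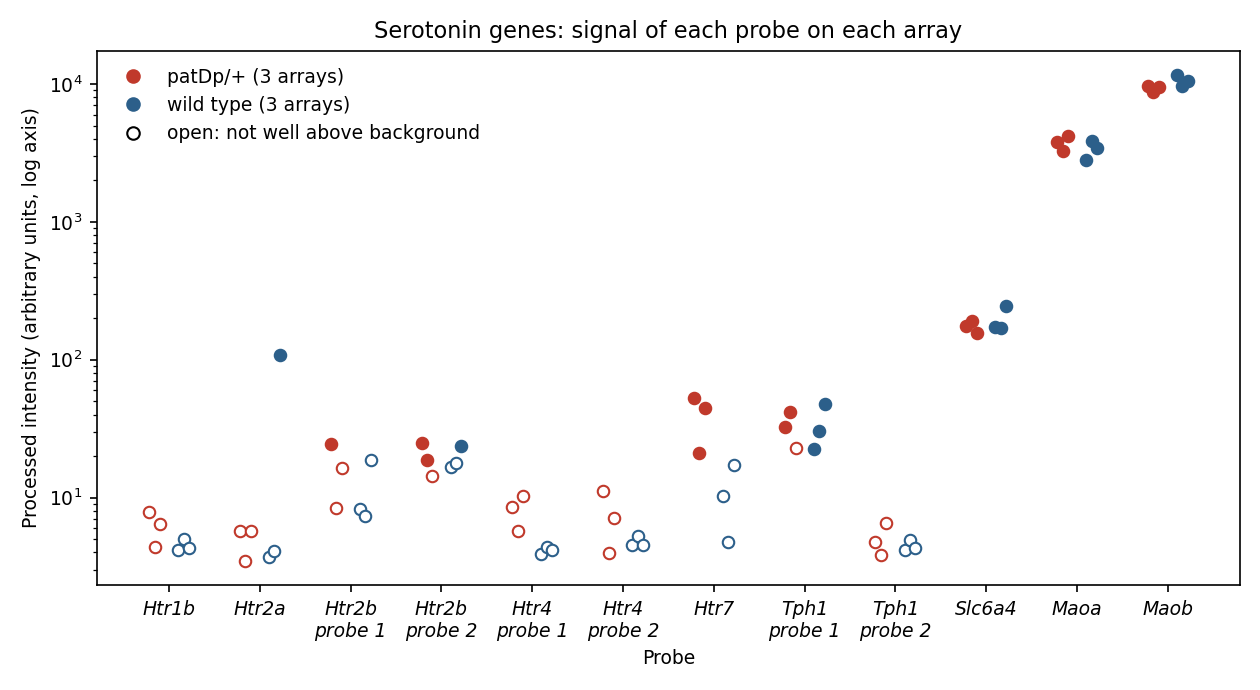
Processed intensity (arbitrary units, log axis) of the 12 member probes on each array, with patDp/+ arrays in red left of wild type arrays in blue and open circles where a probe was not well above background. Filled circles on all 6 arrays are seen for Slc6a4, Maoa and Maob, and Htr7 is filled on the 3 patDp/+ arrays alone.

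Htr7, a receptor that stimulates adenylyl cyclase, was the member that chose the set. Its probe gave 52.6, 21.0 and 44.8 on patDp/+ replicates 1, 2 and 3, against 10.3, 4.78 and 17.1 on wild type replicates 1, 2 and 3. It was well above background on all 3 patDp/+ arrays and on 0 wild type arrays, and the groups did not overlap, although patDp/+ replicate 2 and wild type replicate 3 lay close to each other. Over the whole array, 10 of 41174 probes had this pattern of detection (0.0243%) and 11 had the opposite one (0.0267%). Since the pattern chose the gene, nothing is read from that share.

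The distance of Htr7 from the limit of detection differed between arrays. The lowest signal of any probe well above background was 19.5, 17.0 and 27.2 on patDp/+ replicates 1 to 3, against 18.0, 18.2 and 19.6 on wild type replicates 1 to 3. Htr7 thus cleared this level by a small amount on patDp/+ replicate 2 and fell short of it by a small amount on wild type replicate 3. The 9899 probes that were well above background on no array had median signals of 5.28, 3.86 and 6.27 on the patDp/+ arrays, against 4.24, 4.99 and 4.36 on the wild type arrays. The Htr7 signal on wild type replicate 2 was near that median, and on wild type replicate 3 it exceeded 14.9, the signal below which 95% of those undetected probes lay on that array.

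After each array was scaled to its 75th percentile, Htr7 averaged a log2 level of -4.83 ± 0.71 in patDp/+ fat and -6.72 ± 0.90 in wild type fat (SD, n = 3 each). Because no wild type array showed Htr7 well above background, the fold is given as an approximate lower bound. It sets the mean of the patDp/+ arrays against a mean over the wild type arrays. For each wild type array the lowest signal among detected probes was taken, or the probe's own signal where that was higher. The bound came to 1.88-fold (0.91 on the log2 scale). That lowest signal is not a sharp limit. On wild type replicate 2, where it was 18.2, Cd4 at 19.1 was not well above background. On wild type replicates 1 and 3 the Htr7 spot had a measured value, positive and significant over background though not well above it. The value of wild type replicate 2 was a surrogate put in by the scanner software. No difference within slides is given for Htr7, since no wild type array showed it well above background. The bound on the log2 scale lay between 0.67 (without patDp/+ replicate 1) and 1.32 (without patDp/+ replicate 2) when 1 array was left out. In the authors' deposited table the log2 values were 7.04, 6.82 and 7.02 for patDp/+ arrays, against 6.68, 6.55 and 6.75 for wild type arrays. The group means of that table differed by 0.30, which is a plain difference and not a bound, and the table holds the same 6 arrays, so it adds no separate evidence on a pattern that chose the gene.

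**Figure D2:**
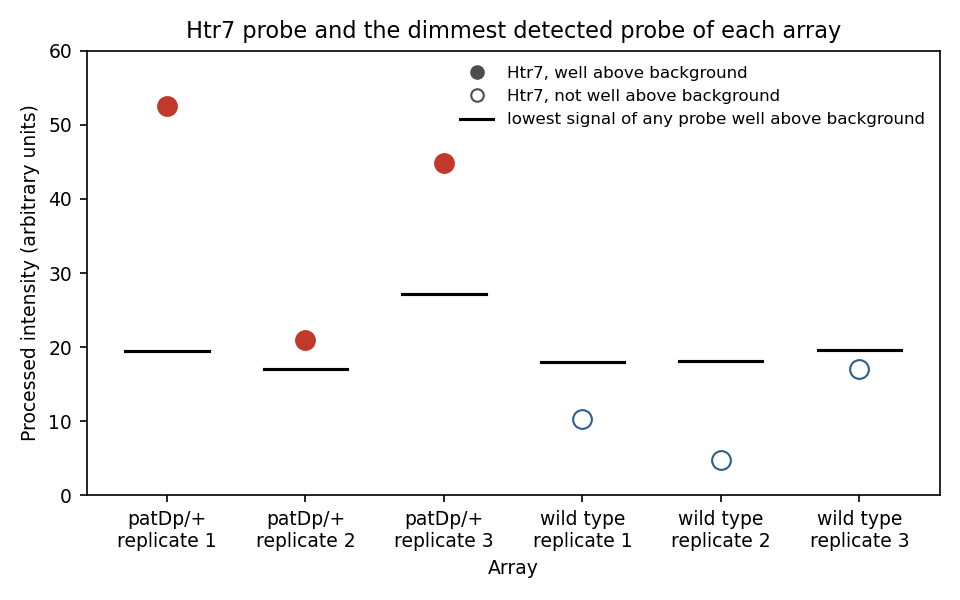
Processed intensity (arbitrary units) of the Htr7 probe on each array, filled where it was well above background, with a bar at the lowest signal of any probe well above background on that array. The 3 patDp/+ points, at 52.6, 21.0 and 44.8, lie above their bars and the 3 wild type points, at 10.3, 4.78 and 17.1, lie below theirs.

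Markers of immune cell types were read on the same arrays, beside a background in which 5.26% of all kept probes had an unadjusted p under 0.05 and 0 passed the adjustment by limma. Of the T cell markers, 6 of 6 measured genes were above 0 in log2 difference, 3 of them at an unadjusted p under 0.05, and their summed level (signals as multiples of the 75th percentile of the array) ranged from 1.1 to 1.28 on patDp/+ arrays and from 0.722 to 0.859 on wild type arrays. Of the B cell markers, 7 of 7 measured genes were below 0, 4 of them at an unadjusted p under 0.05, with sums of 0.827 to 1.86 on patDp/+ arrays and 1.76 to 2.47 on wild type arrays, which overlap, and Pax5 was well above background on 0 arrays. Macrophage markers were above 0 for 8 of 8 genes with a median log2 difference of 0.28 and 0 at an unadjusted p under 0.05, and their sums were 49.7 to 70.6 on patDp/+ arrays and 48.1 to 53.6 on wild type arrays, which overlap too. The T cell sums alone did not overlap between the genotypes among these 3 lists. Among the T cell markers, Cd8a (1.34) and Cd8b1 (1.16) had large log2 differences, and Cd3e (0.07) and Lck (0.20) small ones. Of the other marker lists, nerve and glia sums did not overlap either (2.92 to 3.69 on patDp/+ arrays, 2.06 to 2.42 on wild type arrays). Nor did epididymis and testis sums (0.152 to 0.208 on patDp/+ arrays, 0.212 to 0.228 on wild type arrays). The part of any of these cells in the Htr7 signal was not tested.

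Htr2a, a receptor that acts through phospholipase C and is known on platelets and smooth muscle, was seen on 1 array. Its probe gave 5.73, 3.46 and 5.69 on the patDp/+ arrays, against 3.72, 4.08 and 108 on the wild type arrays. Only wild type replicate 3 was well above background, and the other 5 arrays were at the level of undetected probes. On that array 310 probes were detected that were detected on no other (0.753% of all probes), and 11 of these were brighter than Htr2a. The epididymis marker Adam7, at 170, was among these brighter probes. Of the same marker list, Crisp1, Lcn5, Lcn8, Defb1 and Gpx5 were well above background on 0 arrays. The smooth muscle markers Acta2 (18489), Myh11 (1678) and Tagln (24652) also had their highest signals on wild type replicate 3. Others of that list did not, with Pdgfrb highest on patDp/+ replicate 2 (4025) and Des on patDp/+ replicate 1 (519). The relation of these markers to the Htr2a signal was not tested. The spot carried no outlier or saturation mark, and the authors' deposited table also set it apart, at 7.59 on the log2 scale, with the patDp/+ arrays at 6.57, 6.58 and 6.58 and the other wild type arrays at 6.60 and 6.57. A signal on 1 of 3 wild type arrays gives no difference between genotypes, and no fold is given.

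Htr2b, which couples in the same way as Htr2a and is known to act in adipocyte lipolysis in mice, had 2 probes near the limit of detection. Probe 2, at chr1:88007112-88007171 on mm9, gave 25.0, 18.7 and 14.3 on the patDp/+ arrays, against 16.7, 17.9 and 23.7 on the wild type arrays, and was well above background on 2 patDp/+ arrays and 1 wild type array. The groups overlapped, and the log2 difference was -0.10 ± 0.21 (SE). Probe 1, at chr1:87996242-87996301 and 10.9 kb away, gave 24.4, 8.36 and 16.3 on the patDp/+ arrays, against 8.27, 7.33 and 18.8 on the wild type arrays, and was well above background on patDp/+ replicate 1 alone. The 2 probes shared their highest array, patDp/+ replicate 1, and neither separated the genotypes. With the normexp background correction in place of the scanner's own, the difference of probe 2 was 0.72, so no direction is given for Htr2b.

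Htr1b and Htr4 were not detected. The Htr1b probe, for a receptor that inhibits adenylyl cyclase, gave 7.79, 4.34 and 6.45 on the patDp/+ arrays, against 4.14, 5.02 and 4.29 on the wild type arrays. Htr4 probe 1, for a receptor that raises cyclic AMP, gave 8.60, 5.76 and 10.3 on the patDp/+ arrays, against 3.88, 4.41 and 4.13 on the wild type arrays, and probe 2 gave 11.2, 3.97 and 7.05 against 4.52, 5.23 and 4.54. Every patDp/+ value of Htr4 probe 1 was above every wild type value, but the 3 wild type values were surrogates put in by the scanner software. All 6 values were below the limit of detection and probe 2 overlapped, so no fold is given. A transcript present below this limit would not be seen here.

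The spots nearest to that limit came from 3 members. Just inside it were Htr2b probe 2 on patDp/+ replicate 2 at 18.7, Htr7 on patDp/+ replicate 2 at 21.0 and Tph1 probe 1 on wild type replicate 1 at 22.5. Just outside were Tph1 probe 1 on patDp/+ replicate 3 at 22.8, Htr2b probe 1 on wild type replicate 3 at 18.8 and Htr2b probe 2 on wild type replicate 2 at 17.9. The 2 sets overlap because the limit is set for each array.

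Tph1, the peripheral form of tryptophan hydroxylase, was detected by probe 1 at a low level in both genotypes. It gave 32.7, 41.4 and 22.8 on the patDp/+ arrays, against 22.5, 30.4 and 47.7 on the wild type arrays, and was well above background on 5 of the 6, patDp/+ replicate 3 being the exception. The groups overlapped, with mean log2 levels of -5.06 ± 0.42 in patDp/+ fat and -4.96 ± 0.46 in wild type fat (SD, n = 3 each) and a log2 difference of -0.10 ± 0.29 (SE). Within slides the difference was 0.34, 0.38 and -1.02, so slide 3 alone was negative. Leaving out 1 array gave values between -0.30 and 0.15, and the normexp correction gave 0.65, so the sign depends on the setting. Probe 2 gave 4.73, 3.80 and 6.54 on the patDp/+ arrays, against 4.16, 4.92 and 4.31 on the wild type arrays, and the scanner software had put a surrogate value in place of a measured one on all 6. The pair of probes of this gene thus disagree on whether it is detected.

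Slc6a4, the plasma membrane transporter that returns serotonin into cells, was detected on every array. Its probe, at chr11:76845560-76845619, gave 177, 191 and 155 on the patDp/+ arrays, against 173, 169 and 247 on the wild type arrays. Wild type replicate 3 stood above the rest and the other 5 arrays overlapped. The mean log2 level was -2.59 ± 0.14 in patDp/+ fat and -2.37 ± 0.24 in wild type fat (SD, n = 3 each), a log2 difference of -0.23 ± 0.15 (SE), or 0.856-fold. Within slides it was -0.16, 0.12 and -0.63. It was -0.09 without wild type replicate 3 and 0.20 under the normexp correction, so no direction is given for Slc6a4 either.

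Some mast cell markers shared their highest array with Tph1 and Slc6a4, and others did not. Cma1, a mast cell chymase, gave 1809.6, 1377 and 1146 on the patDp/+ arrays, against 1098, 1525 and 2399 on the wild type arrays, so wild type replicate 3 was highest for Cma1, Tph1 and Slc6a4 alike, and wild type replicate 1 and patDp/+ replicate 3 were lowest for Cma1 and Tph1. Cpa3 and Mcpt4, mast cell proteases as well, also had their highest signals on wild type replicate 3, at 963 and 2936. Fcer1a was highest on patDp/+ replicate 1 (86.2), Hdc on patDp/+ replicate 2 (684) and Kit on wild type replicate 2 (340). All 7 of the 7 measured mast cell markers had log2 differences below 0, with a median of -0.20 and 0 at an unadjusted p under 0.05. Their summed level ranged from 3.79 to 5.77 on patDp/+ arrays and from 4.16 to 7.18 on wild type arrays, and Ms4a2 and Mrgprb1 were well above background on 0 arrays. Platelet markers, with 9 of 10 genes measured, summed to 31.4 to 38.7 on patDp/+ arrays and 30.2 to 33.2 on wild type arrays. Nearly all of that sum was Pf4, at 29811 or more on every array, while no other measured platelet marker exceeded 335. Of these 9 genes, 5 were above 0 in log2 difference and 4 below. Of the nerve and glia markers, Th, Npy and Snap25 were well above background on 0 arrays, and the 7 measured genes summed to 2.92 to 3.69 on patDp/+ arrays and 2.06 to 2.42 on wild type arrays. Their part in the Tph1 and Slc6a4 signals was not tested.

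The monoamine oxidases sit on the outer membrane of mitochondria and remove the amine group of serotonin and related amines. Maoa, the form that prefers serotonin, gave 3826, 3256 and 4179 on the patDp/+ arrays, against 2803, 3838 and 3463 on the wild type arrays. The groups overlapped, and the mean log2 level was 1.83 ± 0.20 in patDp/+ fat and 1.75 ± 0.17 in wild type fat (SD, n = 3 each). The log2 difference was 0.09 ± 0.14 (SE), or 1.06-fold, with 0.25, -0.30 and 0.31 within slides, which is smaller than the spread between mice. It was 0.00 under the normexp correction and -0.01 without patDp/+ replicate 3, so no direction is given for Maoa.

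Maob, the form that prefers phenylethylamine, gave 9676, 8732 and 9547 on the patDp/+ arrays, against 11633, 9615 and 10532 on the wild type arrays. The raw signals of patDp/+ replicate 1 and wild type replicate 2 were nearly equal, but after scaling every patDp/+ array (log2 levels of 3.06 to 3.22) was below every wild type array (3.26 to 3.64). The mean was 3.15 ± 0.09 in patDp/+ fat and 3.41 ± 0.21 in wild type fat (SD, n = 3 each), a log2 difference of -0.25 ± 0.12 (SE), or 0.839-fold. The difference was negative on each slide, at -0.46, -0.20 and -0.10, and lay between -0.36 and -0.13 under the 17 alternative settings. Without wild type replicate 1 it was smallest, at -0.13. Adipocyte markers on the same arrays had a median log2 difference of -0.09 and summed to 1612 to 1801 on patDp/+ arrays and 1674 to 1930.1 on wild type arrays, and their part in the Maob difference was not tested. Of the neighbouring oxidase genes, the groups thus overlapped for Maoa and did not for Maob, and the difference between the genes was not tested.

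Across the 6 kept member probes, Htr7 was higher and Maob lower on every patDp/+ array, and the other 4 overlapped. Among all 27975 kept probes, 10.6% had groups that did not overlap, 4.0% with patDp/+ above and 6.59% with patDp/+ below. Since this contrast entered the choice of the members, nothing is read from their count. No probe of the array passed limma's test at an adjusted p of 0.05, the smallest adjusted p being 0.44, and 1471 (5.26%) had an unadjusted p under 0.05, 2.09% higher and 3.16% lower in patDp/+ fat. With 3 arrays against 3, an exact permutation test of a single probe cannot go below 0.1.

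**Figure D3:**
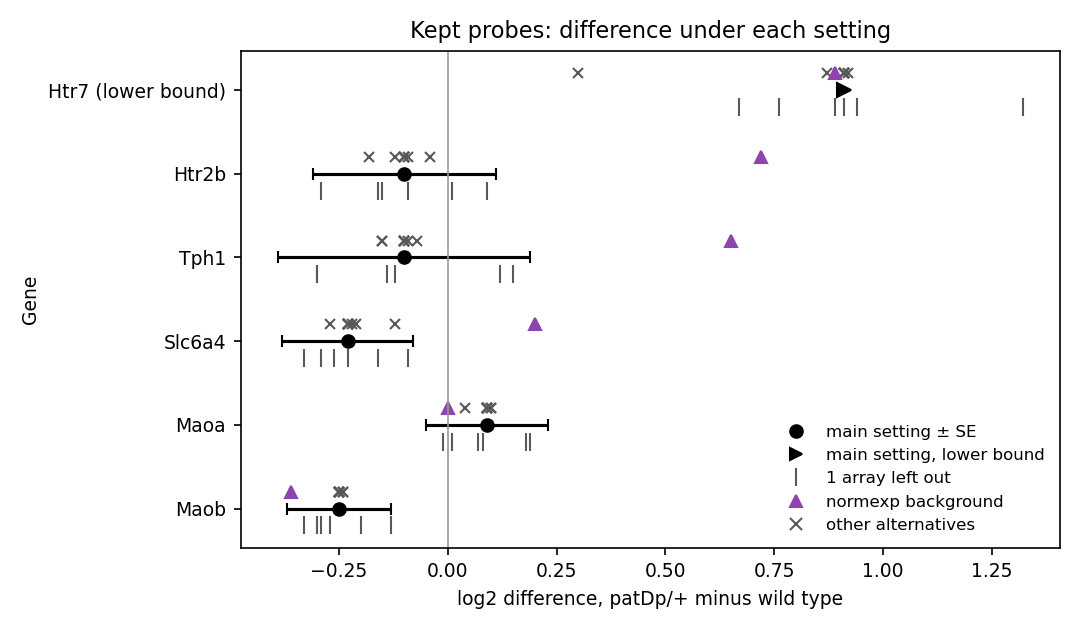
Log2 difference, patDp/+ minus wild type, of the 6 kept member probes (rows), with the main value as a circle and its SE as a bar, a right-pointing triangle for the lower bound of Htr7, vertical ticks for values with 1 array left out, purple triangles for the normexp correction and crosses for the other alternatives (the cross of Htr7 at 0.30 is the plain difference in the deposited table). Values of Maob stay between -0.36 and -0.13, while those of Htr2b, Tph1 and Slc6a4 lie on both sides of 0 once the normexp values of 0.72, 0.65 and 0.20 are counted.

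The genes around the members gave few differences. The 6 lists of other genes of serotonin and monoamine handling held 84 genes, of which 82 had a probe and 64 were measured. By limma, 0 of the 64 passed at an adjusted p of 0.05, and 4 (6.25%) had an unadjusted p under 0.05, 2 higher and 2 lower in patDp/+ fat, beside 5.26% of all kept probes. The median log2 difference was 0.01 in the lists and -0.02 over all kept probes.

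Of the other serotonin receptors, 2 of 9 were measured. Htr1f, which lowers cyclic AMP, gave 34.5, 26.3 and 24.9 on the patDp/+ arrays, against 25.0, 24.0 and 26.9 on the wild type arrays. Htr5a gave 31.0, 47.0 and 34.7 on the patDp/+ arrays, against 28.0, 40.5 and 43.6 on the wild type arrays. Both overlapped, with log2 differences of 0.09 ± 0.13 and -0.06 ± 0.20 (SE). Htr1a, Htr1d, Htr2c, Htr3a, Htr5b and Htr6 were well above background on 0 arrays, and Htr3b on 1 wild type array.

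All 9 genes of synthesis and its cofactor, tetrahydrobiopterin, were measured, and 1 had an unadjusted p under 0.05. Gchfr, which mediates feedback inhibition of cofactor synthesis, gave 247, 217 and 280 on the patDp/+ arrays, against 258, 283 and 337 on the wild type arrays. Its scaled levels did not overlap, with a log2 difference of -0.31 ± 0.13 (SE, unadjusted p = 0.0464, adjusted p = 0.942 by limma). The unadjusted p of Gchfr was 0.05 or above under 10 of the 17 alternatives, among them the authors' deposited table (0.0691) and the normexp correction (0.922). Tph2, the form of tryptophan hydroxylase known from serotonergic neurons, gave 96.5, 65.1 and 59.6 on the patDp/+ arrays, against 4.63, 27.9 and 48.2 on the wild type arrays. Every patDp/+ array was above every wild type array for Tph2, which was not well above background on wild type replicate 1. Its fitted log2 difference, 1.90 ± 0.79 (SE, unadjusted p = 0.0514, adjusted p = 0.942 by limma), includes that undetected value. Pcbd1, which regenerates the cofactor, was likewise lowest on wild type replicate 1, at 1279, and its log2 difference was 0.56 ± 0.28 (SE).

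Of 10 genes of uptake and storage, 6 were measured. Slc22a2, an organic cation transporter that carries monoamines with low affinity, gave 132, 138 and 142 on the patDp/+ arrays, against 40.9, 74.4 and 104 on the wild type arrays. The groups did not overlap and the wild type arrays were the more spread, with a log2 difference of 0.94 ± 0.28 (SE, unadjusted p = 0.0145, adjusted p = 0.931 by limma), which was 0.62 without wild type replicate 1 and 0.46 in the authors' deposited table. Slc18a2, which loads monoamines into vesicles, and Slc6a2, the noradrenaline transporter, overlapped, at -0.09 ± 0.12 and -0.11 ± 0.14 (SE). Of the 13 genes of steps after or beside monoamine oxidase, 11 were measured and 0 had an unadjusted p under 0.05. The smallest p in that list belonged to Ido1, an enzyme that diverts tryptophan to kynurenine, with a log2 difference of -0.36 ± 0.18 (SE), and Aldh2, which oxidises the aldehyde that monoamine oxidase leaves, was at -0.07 ± 0.08 (SE).

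All 24 genes of receptor coupling were measured on all 6 arrays, 12 above and 12 below 0. S100a10, an adaptor that brings the receptors Htr1b and Htr4 to the cell surface, gave 32695, 33429.6 and 31087 on the patDp/+ arrays, against 20430.1, 25478 and 26367 on the wild type arrays. Its groups did not overlap, with a log2 difference of 0.36 ± 0.09 (SE, unadjusted p = 0.00516, adjusted p = 0.931 by limma; 0.22 and unadjusted p = 0.174 with normexp), while both receptors themselves were below detection. Arrb1, an arrestin that ends receptor signalling, was at 0.15 ± 0.08 and Pde3b, which degrades cyclic AMP in adipocytes, at -0.26 ± 0.14 (SE). Of 19 other monoamine receptors, 12 were measured. The dopamine receptor Drd1 gave 103, 196 and 119 on the patDp/+ arrays, against 191, 210 and 295 on the wild type arrays, and after scaling the groups did not overlap, with a log2 difference of -0.83 ± 0.26 (SE, unadjusted p = 0.0177, adjusted p = 0.931 by limma). That unadjusted p was 0.05 or above under 3 of the 17 alternatives, 0.342 with normexp being the highest. The adrenergic receptors Adra1b, at 0.25 ± 0.10, and Adra2c, at -0.53 ± 0.23 (SE), missed an unadjusted p of 0.05.

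**Figure D4:**
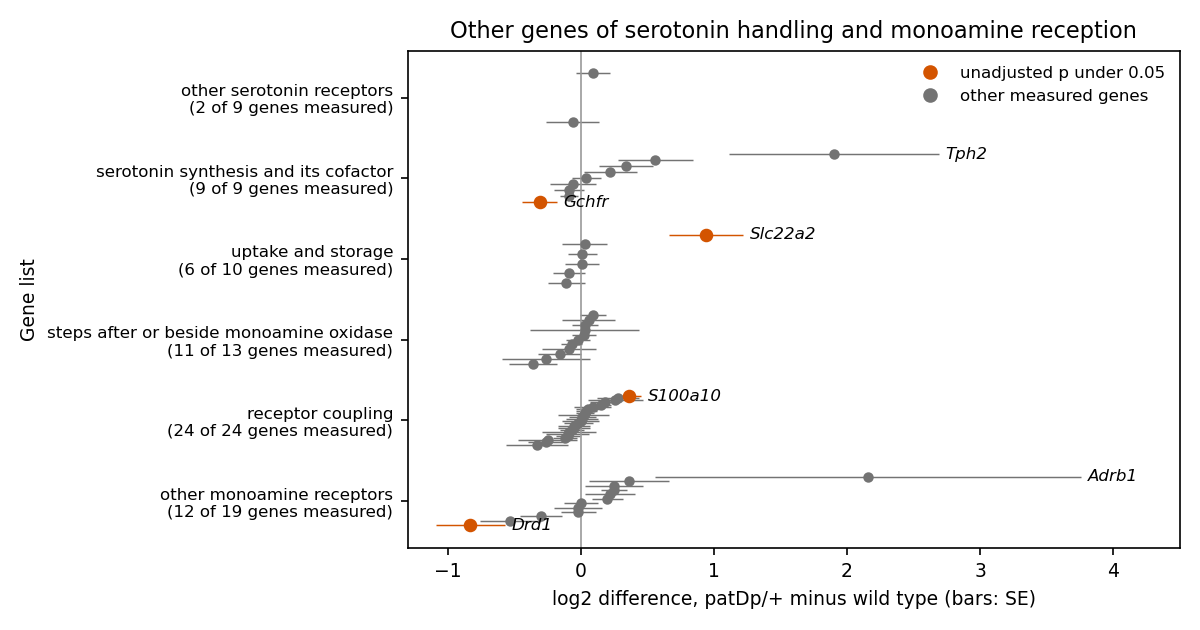
Log2 difference, patDp/+ minus wild type, with its SE (bars) for the 64 measured genes of the 6 lists outside the members. Orange points mark the 4 genes with an unadjusted p under 0.05, Gchfr, Slc22a2, S100a10 and Drd1, and the wide bars of Tph2 and Adrb1 belong to genes with 1 undetected wild type array.

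The genes whose levels followed each member most closely over the 6 arrays were found by Pearson correlation among 14483 genes, as a description in which all points share the same 6 arrays. For Htr7 these were Tradd (r = 0.994), Mapk7 (0.988) and 4930515G01Rik (0.986), and 28 genes exceeded 0.95. For Maob they were Fancl (0.994), Zfr (0.991) and Cd300e (0.991), with 50 genes above 0.95, and for Maoa they were Mcfd2 (0.996), Ufsp2 (0.995) and Epp13 (0.994), with 84. Slc6a4 was followed by Celsr2 (0.991), Slc22a6 (0.985) and Mfng (0.982), Tph1 by Trp53bp2 (0.984), Ube2j2 (0.982) and Twist2 (0.982), and Htr2b by Klhl25 (0.989), Tnnt2 (0.988) and Tprkb (0.987). None of these 18 genes was a member, and the 6 members shared no gene among them. The Htr7 correlations use its wild type values, none of them well above background and that of replicate 2 a surrogate. Those of Htr2b use a probe well above background on 2 patDp/+ arrays and 1 wild type array. Each named gene is the pick of 14483 over 6 arrays, and whether such values arise without any relation was not tested.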

How the data were processed

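Members and gene lists were chosen with earlier results of these data known. Per the file headers, the scanner files hold intensity values quantified with Feature Extraction 9.5.1.1, which subtracted background and detrended each array spatially and gave dim spots a surrogate value. The tools that appear in the submitters' processing notes are limma 3.18.2 and Agilent Feature Extraction 9.5, with no step assigned to them. A quantile normalized table of log2 values that the authors deposited (column medians 7.58) served as an alternative; its background correction is not stated in the sources at hand. Each of the 6 arrays was best matched by its own column.

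Groups came from the sample titles. Here, log2 of the processed intensity was scaled to the 75th percentile of each array, spots flagged as outliers were left out, and probes marked well above background on 3 or more arrays were kept (27975 of 41174). Names were updated through the GRCm38.p6 gene table (27050 probes matched), and coordinates are the mm9 positions of the scanner files. The comparison used the two-sided moderated test of limma 3.58.1 (R 4.3.3, lmFit, then eBayes) with Benjamini-Hochberg adjustment over all kept probes and a threshold of 0.05, and the scripts were checked on simulated data. The fit of a gene used its brightest kept probe. The text names all members, list genes at an unadjusted p under 0.05 or otherwise up to 3 with the smallest p, the 3 most similar genes of each member, and up to 3 markers in list order. Adrb1, some markers and the undetected list genes were named after their values were seen. Precision is limited by the number of arrays. Replicate numbers were not shown to pair the mice (deviations of same-numbered arrays correlated at -0.096 to 0.118).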

Additional observations from a re-analysis of the deposited data

How the results depend on the processing

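The count of probes past an adjusted p of 0.05 by limma was 0 in the main analysis and under all 17 alternatives, which changed the background correction, scaling, source of values, filter on dim probes, outlier flags, probe choice, variance model, array weights or slide block, or left out 1 array. At an unadjusted p under 0.05 the count of 1471 probes ranged from 1031 to 2087 under the 11 alternatives that kept every array, and from 1038 to 2420 with 1 array left out, the highest without patDp/+ replicate 3. With the slide as a block, which equals a replicate block on the label numbers, 1353 probes had an unadjusted p under 0.05 and 0 passed the adjustment, and the check on pairing did not show that the numbers pair the mice. The number of member probes past the adjusted threshold was 0 under every one of these settings. Of the 64 pathway genes, 4 had an unadjusted p under 0.05, against 3 to 8 under the alternatives that kept every array (8 with array weights) and 3 to 9 with 1 array left out (7 without patDp/+ replicate 3, 9 without wild type replicate 1).

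The normexp correction shifted the median log2 difference of all probes to 0.12, from -0.02 in the main analysis, and turned the sign of Htr2b (0.72), Tph1 (0.65) and Slc6a4 (0.20), and it took Drd1 to -0.24, S100a10 to 0.22 and Gchfr to -0.02. Under normexp, patDp/+ replicate 3 stood at -1.89 for Htr2b probe 2, -1.88 for Tph1 probe 1 and -1.47 for Slc6a4. The other arrays lay at -3.07 to -3.73, -3.00 to -3.51 and -1.86 to -2.25 for these probes in that order. The cause was not tested. The signs of Htr2b and Tph1 each turned in 2 of the 6 fits with 1 array left out, and that of Maoa in 1. The bound of Htr7, whose sign its selection fixes, was 0.87 to 0.92 under alternatives that kept every array and used the scanner files, and 0.67 to 1.32 with 1 array left out. In the deposited table it equalled the plain difference of 0.30 and is no bound. The normexp bound of 0.89 is no separate support. Under that correction Tph1 probe 2, well above background on 0 arrays, averaged -3.18 in patDp/+ fat and -4.11 in wild type fat. Requiring detection on all 6 arrays left Htr7, Htr2b and Tph1 out. Signals near background limit what can be said of the receptors and of Tph1.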
